A study of Homo sapiens with 12 samples.

Results

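Metallothioneins are small cysteine-rich proteins whose thiol groups bind zinc and copper, and here 8 genes of the family were followed: MT1A, MT1E, MT1F, MT1G, MT1M, MT1X, MT2A and MT3. They were chosen by symbol from the 58721 genes of the count table and lie together on the long arm of chromosome 16. The RNA came from EW8 and TC71, lines established from Ewing sarcoma, a tumor of bone and soft tissue driven by the fusion protein EWS-FLI1. Both lines, given as wild type in the labels, carried a lentiviral construct that makes c-Jun and c-Fos when doxycycline is added. These are subunits of the transcription factor AP-1. The construct was driven by a doxycycline-responsive promoter, and a constitutive human promoter drove its transactivator. The 4 groups were EW8 and TC71 cells grown for 72 h with vehicle (DMSO) or with doxycycline at 2000 ng/ml, with 3 libraries each. No doxycycline-treated cells without the transgenes were analysed here, so doxycycline itself and the induced proteins cannot be told apart.

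In most tissues metallothioneins store zinc and copper, buffer toxic metals such as cadmium, and take up reactive oxygen species. Their genes are switched on by zinc through the metal-sensing factor MTF1, which binds metal response elements in their promoters, and several also respond to glucocorticoids and to oxidative stress. MT2A is the most widely expressed human member, the MT1 genes are inducible copies, and MT3 is known mainly from brain.

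Of the 8 members, MT2A held nearly all of the reads and rose with doxycycline in both lines. Its level was 7.08-fold higher in EW8 and 4.12-fold higher in TC71. MT1X was 1.84-fold higher in EW8, which passed the test but not the fold limit, and MT1F did not pass the test in either line. The other 5 members were near the detection floor in all 4 groups.

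All 8 members are protein-coding genes between positions 56589074 and 56684196 of chromosome 16 (hg38), a span of 95123 bp. In order along the chromosome, MT3 lies at 56589074 to 56591088, MT2A at 56608199 to 56609497, MT1E at 56625475 to 56627112 and MT1M at 56632233 to 56633986. MT1A follows at 56638666 to 56640087, MT1F at 56657694 to 56660698, MT1G at 56666731 to 56668065 and MT1X at 56682424 to 56684196. MT1G is the only member on the minus strand, and the other 7 are on the plus strand.

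The 250 bases before the RefSeq transcription start (GRCh38.p14, plus strand) are shown for MT2A and MT1X, the members with a RefSeq promoter entry (2 of 8), because MT2A changed most and MT1X shares part of its pattern. The MT2A stretch is chr16:56608334-56608583 and the MT1X stretch is chr16:56682220-56682469. Capitals mark the metal response element core (TGCACNC or TGCGCNC) and the AP-1 site (TGACTCA), each searched on both strands.
MT2A: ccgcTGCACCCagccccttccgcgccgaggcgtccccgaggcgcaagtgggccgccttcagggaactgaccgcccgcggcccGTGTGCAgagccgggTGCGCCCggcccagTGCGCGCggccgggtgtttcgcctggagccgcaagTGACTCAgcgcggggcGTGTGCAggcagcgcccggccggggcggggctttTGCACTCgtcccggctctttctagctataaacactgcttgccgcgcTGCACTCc
MT1X: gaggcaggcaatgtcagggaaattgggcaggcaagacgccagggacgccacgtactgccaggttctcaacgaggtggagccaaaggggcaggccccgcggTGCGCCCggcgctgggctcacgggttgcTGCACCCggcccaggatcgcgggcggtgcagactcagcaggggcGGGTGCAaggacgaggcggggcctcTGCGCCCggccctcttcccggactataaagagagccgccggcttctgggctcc

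The MT2A stretch held 7 metal response element cores, the nearest 8 to 2 bases and the farthest 246 to 240 bases before the start. It also held 1 AP-1 site, 104 to 98 bases before the start, and these letters also lay within a match to the antioxidant response element core (TGACNNNGC, 104 to 96 bases before the start). The MT1X stretch held 4 metal response element cores, the nearest 53 to 47 and the farthest 150 to 144 bases before the start, no TGACTCA and 1 antioxidant core. Of 35116 RefSeq promoters of the same length, 24.8% held at least 1 metal response element core, 130 (0.37%) held 4 or more, 4.20% held TGACTCA and 10.9% held the antioxidant core. The cyclic AMP type of AP-1 site (TGACGTCA), present in 1.65% of promoters, was in neither stretch. A match of letters is a description of the sequence and not a measured binding site. The gene models used for counting begin earlier than these starts for both genes, so the whole printed MT2A stretch and the end of the MT1X stretch lie inside the counted exons.

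The libraries held 42860665 to 60853649 counts, with the mates of a pair counted one by one. All 10 Ewing sarcoma markers checked (among them CD99, NKX2-2 and NR0B1) were above the floor of 6 counts, or 3 read pairs, in all 12 libraries. Of 9 markers of other cells, 4 (CD3E, HBB, MYOD1 and MYOG) were at the floor in all 12. The summed level of the 9 was 65.7 to 73.5 CPM (counts scaled to a common library size, with TMM factors) in EW8 vehicle and 74.8 to 80.2 in EW8 doxycycline. In TC71 it was 0.63 to 1.80 CPM with vehicle and 11.5 to 12.6 with doxycycline. In EW8 it came mainly from PTPRC, a leukocyte marker that reached 77.4 CPM. The highest TC71 sum with doxycycline, 12.6 CPM, was the same as the highest level of EPCAM, an epithelial marker. The part of these levels in the results was not tested. TC71 vehicle replicate 1 stood apart from the other replicates of its group, with a chi-square per gene of 63.9 and 61.7 against them, while the other 10 replicate pairs gave 5.40 to 11.03. Main TC71 values are given with and without it. The induced genes checked the labels. JUN ranged from 18.04 to 25.3 CPM in the vehicle libraries and from 422 to 814 in the doxycycline libraries, and FOS from 11.2 to 37.6 and from 999 to 1686.

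MT2A carried 41457 of the 43969 counts of the 8 members (94.3%) over the 12 libraries. MT1X had 1545 counts and MT1F 878. The remaining members had between 11 counts (MT1M) and 26 counts (MT1A) in all libraries together. An additional 13 metallothionein genes and pseudogenes in the table were looked up, and 11 of them had at most 6 counts in every library. MT2A made up 93.8% of the counts of all 21 genes.

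**Figure D1:**
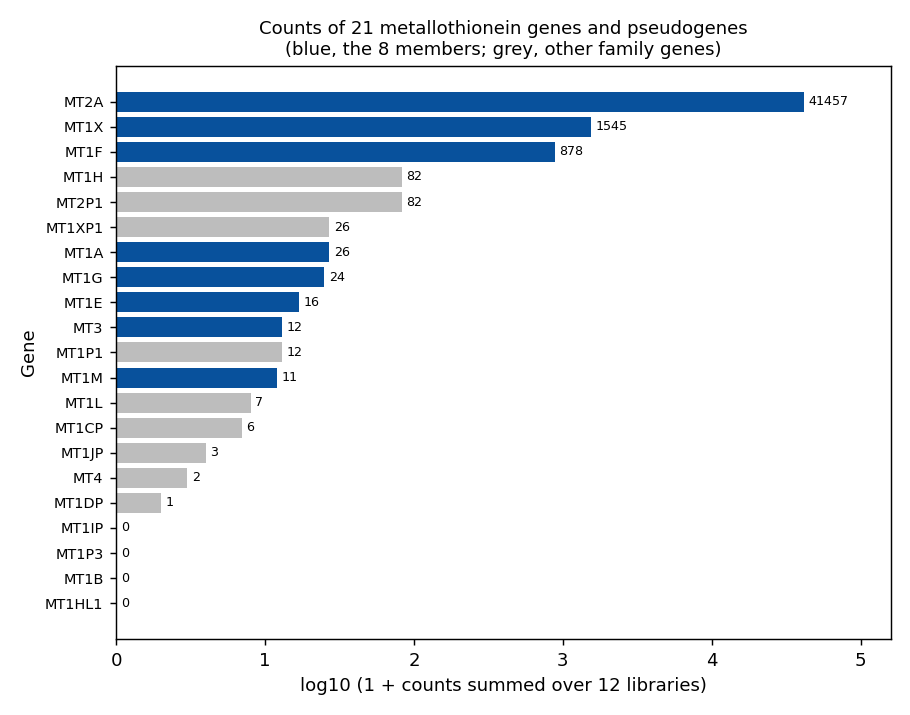
Counts summed over the 12 libraries for 21 metallothionein genes and pseudogenes, as log10 of 1 plus the count on the horizontal axis. Blue bars are the 8 members and grey bars the 13 other genes. MT2A, with 41457 counts, is followed by MT1X with 1545 and MT1F with 878, and no other gene passes 82.

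Reads that could come from several copies were discarded by the counter, so the uniqueness of each gene was measured. Of the 100-base windows of the merged exons, all were found only once in the genome for 7 of the 8 members. MT1E was the exception, with 27 of 854 windows found elsewhere. When 1 mismatch was allowed, 56 windows of MT1E, 19 of 552 of MT1G and 1 of 645 of MT1M had another match. None of the 1200 windows of MT2A, the 1674 of MT1X or the 1691 of MT1F had one. MT1X shares 321 of its 1773 exon bases with ENSG00000259827.1, and reads there were not assigned to either gene. Strand was not used in counting, so reads of genes that overlap on opposite strands cannot be told apart.

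MT2A is the member that most human cells use for metal storage. In EW8 vehicle its level was 14.6, 17.6 and 13.6 CPM in replicates 1 to 3, from 649, 807 and 758 counts. In EW8 doxycycline it was 109, 109 and 106 CPM, from 6104, 5536 and 4621 counts. The EW8 groups did not overlap, and the lowest doxycycline library was several times above the highest vehicle library. In TC71 vehicle the level was 27.6, 35.5 and 37.0 CPM, from 1446, 2202 and 1904 counts. In TC71 doxycycline it was 136, 144 and 131 CPM, from 5630, 6032 and 5768 counts. The TC71 groups did not overlap either, and TC71 vehicle replicate 1 was the lowest library of its group.

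**Figure D2:**
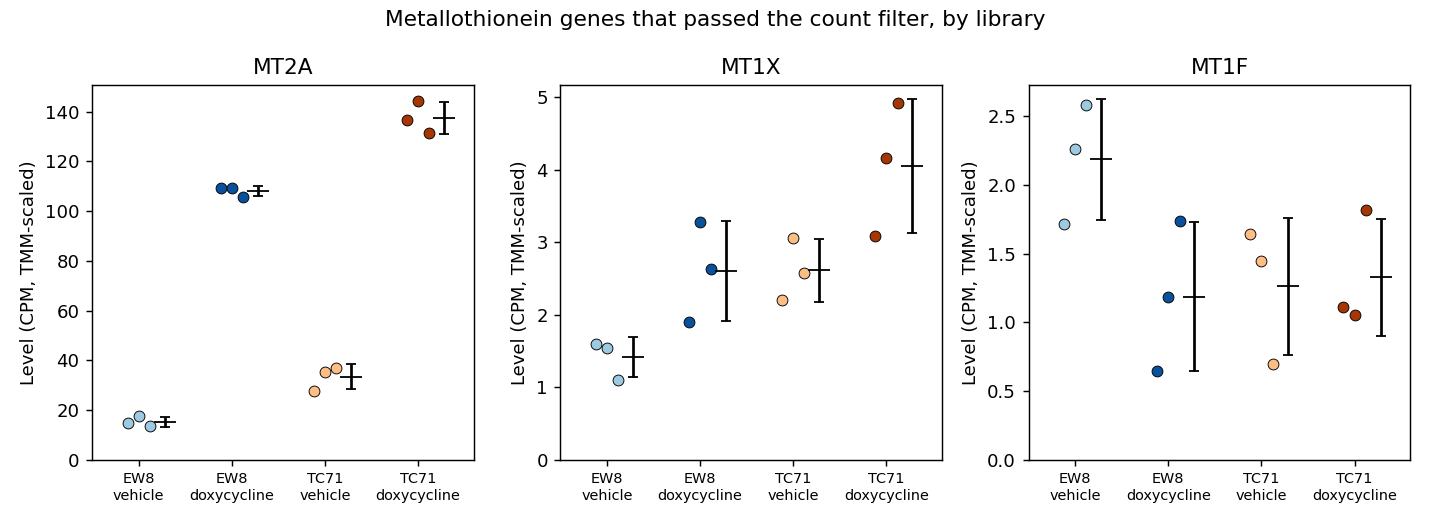
Levels of MT2A, MT1X and MT1F in CPM (vertical axes, each starting at 0, different scales) in the 4 groups. Points are the 3 libraries of a group, and the bar beside them is the mean with its SD. MT2A separates doxycycline from vehicle in both lines, MT1X separates them by less, and MT1F overlaps.

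The question of the study, what changes when c-Jun and c-Fos are induced, was put to each gene with the quasi-likelihood test of edgeR on the counts of all 12 libraries, with Benjamini-Hochberg adjustment over 21013 genes. Calls needed an adjusted p below 0.05 and a log2 fold change beyond 1 in either direction, the limit the study used. Of the 8 members, 3 passed the filter on low counts and could be tested (MT2A, MT1X and MT1F), and 1, MT2A, was called higher in EW8, where 11.4% of all tested genes were. In TC71 it was again 1 of these 3, MT2A, where 12.3% of all tested genes were called higher. No member was called lower in either line, beside 3.38% of all tested genes in EW8 and 3.67% in TC71. With no fold limit MT1X was added in EW8, beside 21.9% of all tested genes higher by that rule. The median log2 fold change of the 3 tested members was 0.88 in EW8 and 0.63 in TC71, beside −0.03 and 0.00 over all tested genes.

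The mean MT2A level rose from 15.3 ± 2.06 to 108 ± 2.20 CPM (SD, n = 3) in EW8. Its log2 fold change was 2.82 (SE 0.10, 95% interval 2.60 to 3.04, edgeR adjusted p = 1.25e-13). The TC71 mean rose from 33.3 ± 5.02 to 137 ± 6.50 CPM (SD, n = 3). There the log2 fold change was 2.04 (SE 0.10, 95% interval 1.83 to 2.25, edgeR adjusted p = 5.49e-12), and 1.84 without TC71 vehicle replicate 1. In EW8, 1105 of the 21013 tested genes had a larger log2 fold change, and in TC71 1743 had.

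Per kilobase of exon, MT2A had 11.8 RPKM (CPM per kilobase of exon) in EW8 vehicle and 83.2 in EW8 doxycycline, with 4079 and 512 tested genes above it. In TC71 it had 25.7 and 106 RPKM, with 1925 and 401 genes above it. The counted MT2A model is 1 merged exon of 1299 bp that covers its whole span. Bases that a shorter transcript lacks are part of this length, so the RPKM and ranks may be too low. The order of the MT2A levels was EW8 vehicle, TC71 vehicle, EW8 doxycycline and TC71 doxycycline, and no neighbours in this order overlapped.

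The fold response of MT2A was smaller in TC71 than in EW8. In CPM the rise was not smaller, with means going from 33.3 to 137 in TC71 and from 15.3 to 108 in EW8. The difference of the log2 fold changes, TC71 minus EW8, was −0.78 (SE 0.14, 95% interval −1.08 to −0.49, edgeR adjusted p = 0.000491). It was −1.03 without TC71 vehicle replicate 1. Of the 3 tested members, 1 was called for a smaller fold response in TC71, beside 7.07% of all tested genes.

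The lines also differed before induction. Under vehicle MT2A was 2.19-fold higher in TC71 than in EW8 (log2 1.13, SE 0.10, edgeR adjusted p = 1.98e-08), and log2 1.36 higher without TC71 vehicle replicate 1. MT2A was the 1 member called higher in TC71 under vehicle, beside 11.6% of all tested genes. Under doxycycline the lines lay closer together, with MT2A 1.27-fold higher in TC71 (log2 0.35, SE 0.09, edgeR adjusted p = 0.00389), under the fold limit. The adjusted p of that difference was 0.0787 without EW8 doxycycline replicate 3. Among the members 0 were called between the lines under doxycycline by edgeR, beside 31% of all tested genes called in either direction, and 2 had an unadjusted p under 0.05. These comparisons share libraries with each other and are given side by side.

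MT1X, an inducible member at the far end of the cluster, had a low level. In EW8 vehicle it was 1.60, 1.55 and 1.10 CPM, from 71, 71 and 61 counts. In EW8 doxycycline it was 1.90, 3.28 and 2.63 CPM, from 106, 166 and 115 counts. The EW8 groups did not overlap. In TC71 vehicle it was 2.20, 3.06 and 2.58 CPM, and in TC71 doxycycline 3.08, 4.16 and 4.91 CPM. The TC71 groups touched without overlapping, since the lowest doxycycline library, 3.08 CPM, was barely above the highest vehicle library, 3.06 CPM.

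The log2 fold change of MT1X was 0.88 in EW8 (SE 0.27, edgeR adjusted p = 0.0119), under the fold limit, and 1.12 without EW8 doxycycline replicate 1, where it was called. In TC71 it was 0.63 (SE 0.25, edgeR adjusted p = 0.0521), which missed the threshold, and 0.44 without TC71 vehicle replicate 1. When 1 library was left out, the edgeR adjusted p went from 0.0039 to 0.0664 in EW8 and from 0.0273 to 0.212 in TC71. In both lines it thus fell on either side of the threshold. The responses were not shown to differ. The difference was −0.25 on the log2 scale (95% interval −1.03 to 0.53, edgeR adjusted p = 0.724). Between the lines MT1X was higher in TC71, by log2 0.89 under vehicle (edgeR adjusted p = 0.0073) and log2 0.64 under doxycycline (edgeR adjusted p = 0.0372). Both were under the fold limit. With no fold limit, 28.2% and 30.2% of all tested genes were higher in TC71 under vehicle and doxycycline. The first was log2 1.11, and called, without TC71 vehicle replicate 1, and the second had an adjusted p of 0.198 without EW8 doxycycline replicate 1.

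MT1F, another inducible copy, moved differently. In EW8 vehicle it was 1.71, 2.27 and 2.59 CPM, from 76, 104 and 144 counts. In EW8 doxycycline it was 0.644, 1.19 and 1.74 CPM, from 36, 60 and 76 counts. The EW8 groups overlapped slightly, with the highest doxycycline library just above the lowest vehicle library. In TC71 vehicle MT1F was 1.64, 1.45 and 0.699 CPM, and in TC71 doxycycline 1.11, 1.05 and 1.82 CPM, with wide overlap.

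The log2 fold change of MT1F was −0.89 in EW8 (SE 0.38, edgeR adjusted p = 0.0704), which missed the threshold. Its adjusted p was 0.0429 with no filter on low counts and 0.0265 with only the EW8 libraries fitted, both under the fold limit. Without EW8 doxycycline replicate 3 it was −1.22 and called lower. In TC71 it was 0.07 (95% interval −0.75 to 0.89, edgeR adjusted p = 0.916), and 0.22 without TC71 vehicle replicate 1. Its difference of responses was 0.97 (edgeR adjusted p = 0.257). Between the lines the log2 difference, TC71 minus EW8, was −0.79 under vehicle (edgeR adjusted p = 0.0806) and 0.17 under doxycycline (edgeR adjusted p = 0.725).

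**Figure D3:**
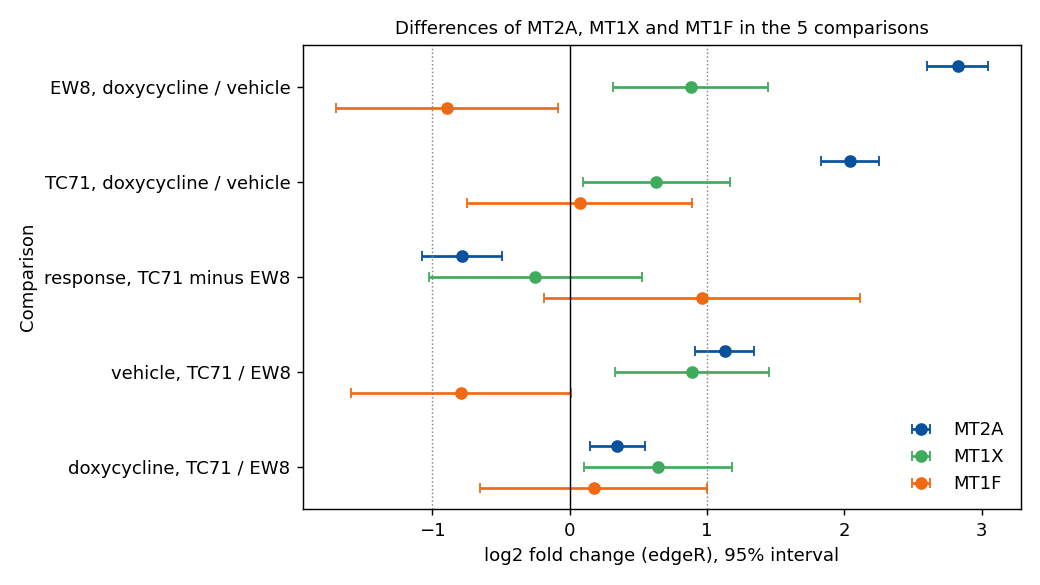
The log2 fold changes of MT2A, MT1X and MT1F (horizontal axis) in the 5 comparisons (rows), with 95% intervals. Dotted lines mark a log2 fold change of 1 in either direction. The intervals of MT2A are the narrowest and exclude 0 in all 5 rows, and those of MT1F include 0 in 4 rows and reach from −1.70 to −0.08 in the EW8 row.

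Per kilobase of merged exon, MT1X and MT1F were of like level, and by these lengths they changed order. In EW8 vehicle MT1F had 0.907 to 1.37 RPKM over the 3 libraries and MT1X 0.618 to 0.903. In EW8 doxycycline MT1X had 1.07 to 1.85 RPKM and MT1F 0.341 to 0.919. In both TC71 groups MT1X was also above MT1F, without overlap. These values rest on merged exon lengths of 1773 bp for MT1X, its whole span, and 1889 bp for MT1F. Reads in 321 of the MT1X bases, shared with another gene, were not assigned, so its RPKM may be too low. The order in EW8 vehicle, where the ranges nearly touched, therefore depends on the lengths used.

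The other 5 members were at or near the floor. MT1A had at most 5 counts in any library and MT1M at most 3, so that both were at the floor in all 4 groups. MT3 had at most 6 counts and was at the floor too. MT1E had 0, 5 and 7 counts in the EW8 doxycycline replicates and 0 to 2 in the other groups. MT1G had 0, 12 and 8 counts in the TC71 doxycycline replicates and 0 to 2 in the other groups. The floor of 6 counts corresponded to 0.0966 to 0.145 CPM, depending on the library, and covers counting error only, since amplified reads are not independent molecules. A change in these 5 genes was not detectable at this depth. When the filter on low counts was left out, none of the 5 passed. The lowest edgeR adjusted p of doxycycline against vehicle was 0.257, for MT1G in TC71. Between the lines the lowest was 0.241, for MT1G under doxycycline.

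Of the 13 further family genes, MT1H and MT2P1 passed 6 counts. MT1H, a neighbour of the members, had 0, 1 and 1 counts in EW8 vehicle, 11, 9 and 8 in EW8 doxycycline, 2, 11 and 5 in TC71 vehicle and 8, 13 and 13 in TC71 doxycycline. MT2P1, a pseudogene on chromosome 4 named for MT2A, had 0 counts in all 3 EW8 vehicle libraries and 13, 9 and 8 in EW8 doxycycline. In TC71 it had 6, 0 and 7 counts with vehicle and 21, 8 and 10 with doxycycline. Against the floor MT2P1 was at least 1.59-fold higher with doxycycline in EW8. It passed the filter on low counts through its doxycycline libraries, so no p-value is given for it. All of its 84 windows were unique in the genome, and 0 matched another family transcript exactly. Whether spliced MT2A reads with mismatches were counted for it was not tested.

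Summed over the 8 members, the level was 17.98, 21.5 and 17.5 CPM in EW8 vehicle and 112, 114 and 110 CPM in EW8 doxycycline. The TC71 sums were 31.5, 40.0 and 40.3 CPM with vehicle and 141, 150 and 138 CPM with doxycycline. The sum followed MT2A, whose share was 78.0% to 81.7% in EW8 vehicle, 95.7% to 97.7% in EW8 doxycycline, 87.7% to 91.6% in TC71 vehicle and 94.9% to 97.0% in TC71 doxycycline. In both lines the share was higher in every doxycycline library than in every vehicle library.

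Protein-coding genes beside the cluster had smaller values than MT2A. Of 5 such genes within 250 kb, 4 were tested and 0 were called by edgeR in either line, with 2 at an unadjusted p under 0.05 in each. Beside this, 11.4% of all tested genes were called higher and 3.38% lower in EW8, and 12.3% and 3.67% in TC71. NUDT21, a factor of messenger RNA cleavage, was lower by log2 −0.61 in EW8 and −0.36 in TC71, with an adjusted p under 0.05 in both lines but under the fold limit. NUP93, the nearest neighbour beyond MT1X and a nuclear pore protein, had 0.19 and −0.04. NUDT21 and NUP93 were named after their values were seen.

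**Figure D4:**
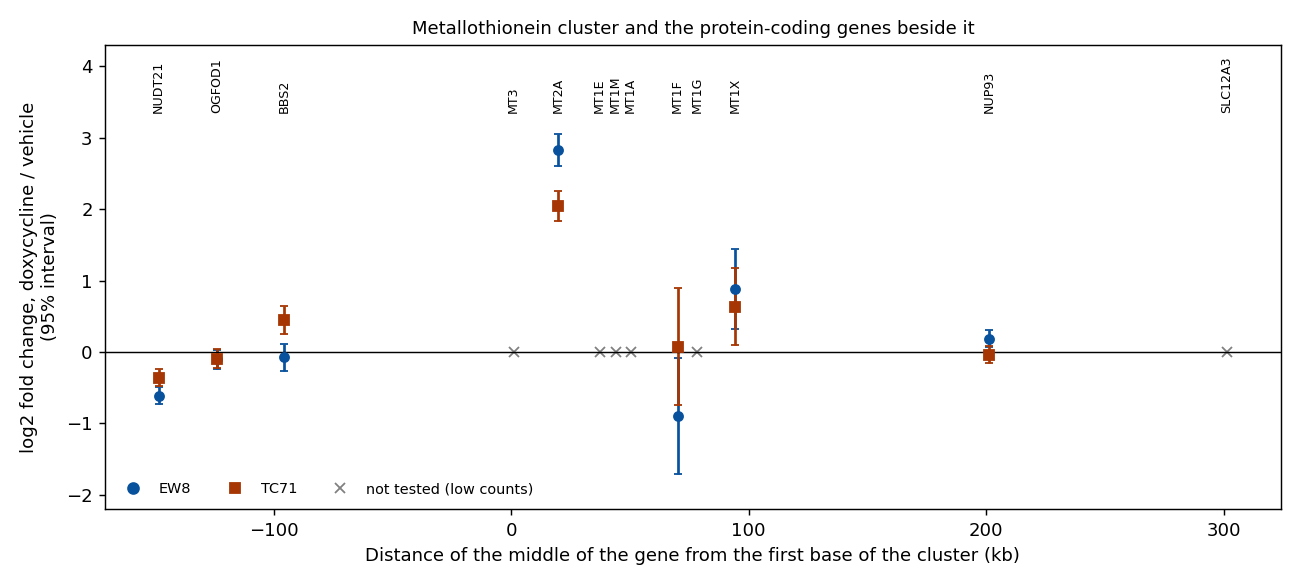
The log2 fold change of doxycycline against vehicle (vertical axis, 95% intervals) in EW8 and TC71 for the 8 members and 5 neighbouring genes, by distance in kb from the first base of the cluster. Grey crosses, set at 0, are genes with too few counts to test. MT2A, at 2.82 and 2.04, stands above the 4 neighbours tested.

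The genes that sense and move zinc were read next. MTF1, the factor that binds metal response elements, was 28.4, 27.0 and 30.1 CPM in EW8 vehicle and 29.7, 30.1 and 28.1 with doxycycline. TC71 cells had 34.9, 33.9 and 34.2 CPM with vehicle and 42.0, 43.04 and 39.8 with doxycycline. Its log2 fold change was 0.04 in EW8 (edgeR adjusted p = 0.704) and 0.28 in TC71 (edgeR adjusted p = 0.0043), or 0.21 without TC71 vehicle replicate 1. The TC71 groups of MTF1 did not overlap, while those of EW8 did.

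SLC30A1, the zinc exporter that MTF1 is known to switch on together with the metallothioneins, was 24.2, 20.97 and 21.02 CPM in EW8 vehicle and 23.8, 21.5 and 20.5 with doxycycline. In TC71 it was 43.2, 35.6 and 31.4 CPM with vehicle and 52.8, 51.5 and 45.5 with doxycycline. The log2 fold change was −0.01 in EW8 (95% interval −0.24 to 0.23, edgeR adjusted p = 0.977) and 0.44 in TC71 (edgeR adjusted p = 0.0022), under the fold limit. The sign of the EW8 value changed with the scaling, and the TC71 value was 0.49 without TC71 vehicle replicate 1.

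Of 24 zinc transporters, 20 were tested. In EW8 2 were called higher and 0 lower, beside 11.4% and 3.38% of all tested genes, with a list median of −0.06. In TC71 also 2 were called higher and 0 lower, beside 12.3% and 3.67% of all tested genes, with a median of 0.35. With no fold limit 5 were higher and 5 lower in EW8, and 11 and 1 in TC71, all libraries fitted. Without TC71 vehicle replicate 1 the TC71 median was 0.28, and SLC39A8, an importer named after its values were seen, was added as 1 called lower. With all libraries SLC39A8 had log2 fold changes of −0.86 in EW8 and −0.97 in TC71, with an adjusted p under 0.05 in both but under the fold limit. SLC30A3, a transporter that loads zinc into synaptic vesicles, was called in both lines, with log2 fold changes of 1.17 and 2.33. SLC39A11, a zinc importer, was called in EW8 (1.38) and had 0.24 in TC71. SLC39A13, another importer of the family, was called in TC71 (1.13, or 1.02 without TC71 vehicle replicate 1) and had 0.70 in EW8, and was named after its values were seen. Of 10 genes of copper handling, 9 were tested and 0 were called by edgeR in either line, while 4 in EW8 and 6 in TC71 had an unadjusted p under 0.05. The list medians were −0.15 and −0.16, the second −0.23 without TC71 vehicle replicate 1.

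Other inputs known for metallothionein genes were covered by short lists. Of 9 glucocorticoid response genes, 2 were called higher and 0 lower in EW8, and 2 higher and 1 lower in TC71. Over all tested genes 11.4% were called higher and 3.38% lower in EW8, and 12.3% and 3.67% in TC71. DUSP1, a phosphatase of MAP kinases, had log2 fold changes of 3.04 and 2.19, and SGK1, a kinase, 1.45 and 1.65. In TC71 vehicle SGK1 was 40.1, 14.8 and 14.7 CPM, and without the first of these libraries its TC71 log2 fold change was 2.22. ZBTB16, a zinc finger repressor named after its values were seen, was the one called lower (−1.79 in TC71, −0.99 in EW8). With no fold limit 4 list genes were higher and 4 lower in EW8, and 3 and 3 in TC71, all libraries fitted. FKBP5, also named after its values were seen, went from a mean of 70.4 to 43.1 CPM in EW8 and from 114 to 65.8 in TC71. The list medians were −0.35 and 0.19, and the second turned to −0.11 without TC71 vehicle replicate 1. Of 11 heat shock genes, 1 was called higher and 0 lower in each line, the higher one being the co-chaperone BAG3 (1.47 in EW8, 2.06 in TC71). With no fold limit more of these genes were lower than higher, 2 higher and 5 lower in EW8, and 2 and 6 in TC71, all libraries fitted. The medians were −0.08 and −0.34, the second −0.14 without TC71 vehicle replicate 1.

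Of 8 oxidative stress genes, 1 was called higher in EW8 and 2 in TC71, beside 11.4% and 12.3% of all tested genes. The list medians were 0.08 and 0.07, the second −0.12 without TC71 vehicle replicate 1. SRXN1, sulfiredoxin, was the 1 called in EW8 and 1 of the 2 called in TC71, from few counts. It passed the filter on low counts through its doxycycline libraries, so its calls are not independent of that filter and no p-value is given for it. In EW8 it had 0, 2 and 5 counts with vehicle and 15, 25 and 19 with doxycycline, so that against the floor it was at least 3.20-fold higher. In TC71 it had 8, 5 and 8 counts with vehicle and 76, 56 and 44 with doxycycline, a log2 fold change of 3.42. HMOX1, heme oxygenase, another gene known to respond to metals, was called in TC71 (log2 2.96, or 2.66 without TC71 vehicle replicate 1) and had 0.12 in EW8. HMOX1 was named after its values were seen. So was NQO1, which went from a mean of 16.9 to 8.56 CPM in EW8 and from 72.1 to 44.7 in TC71. With no fold limit 3 of the 8 genes were higher and 2 lower in each line, all libraries fitted.

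The genes whose log2 level followed the summed metallothionein level most closely over the 12 libraries were BHLHE40, a transcriptional repressor, CUBN, an endocytic receptor, RHOC, a small GTPase, NGEF, an exchange factor for small GTPases, and ELL2, an elongation factor. Their Pearson r was 0.996, 0.996, 0.995, 0.994 and 0.994. The 12 points fall into 4 groups that share lines and treatments, and 283 of 21010 genes had r above 0.95, so these values describe the group pattern. For BHLHE40 the levels were 9.81, 10.1 and 9.84 CPM in EW8 vehicle, 73.2, 78.8 and 74.4 in EW8 doxycycline, 18.3, 24.6 and 26.9 in TC71 vehicle and 119, 123.4 and 115 in TC71 doxycycline. This is the same order of groups as for MT2A.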

How the data were processed

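Polyadenylated RNA was made into stranded libraries and sequenced as read pairs in 1 lane. The authors checked reads with FastQC, aligned them with STAR to hg38 and counted them with featureCounts 2.0.1 on GENCODE 29 exons. The authors deposited raw counts for each gene, with no normalization. Per the file headers no option for pairs, strand, multi-mapped reads or overlaps was set, so mates were counted separately (67.3% to 69.8% of gene counts in a middle range were even) and ambiguous reads were dropped. All 12 columns were used.

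Symbols were matched by identifier for 58207 of 58721 genes (GENCODE 44). Tests used edgeR 4.0.16 in R 4.3.3 (filterByExpr, TMM, 1 quasi-likelihood fit of 4 groups, 21013 genes holding 99.95% of counts), checked on simulated data. DESeq2 1.42.0, the tool of the study, was an alternative. Windows were searched with BLAST 2.17.0. The labels number replicates but name no separate cultures, so p-values measure the spread between libraries, which may be technical.

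Members and lists were chosen with earlier results of these data known. Named genes are the members, other family genes, list genes called the same way in both lines, the largest call of each list and line, MTF1, SLC30A1, JUN, FOS and the 5 genes of most similar pattern. A further gene beside the cluster is not reported here.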

Additional observations from a re-analysis of the deposited data

Results flagged for a closer look

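Of the genes with values above, 11 had responses that differed between the lines by the interaction test of edgeR. The values are TC71 minus EW8 differences of log2 fold changes. MT2A had −0.78 (SE 0.14, adjusted p = 0.000491), and its log2 fold changes were 2.82 in EW8 and 2.04 in TC71. DUSP1 and SLC39A11 also had smaller log2 fold changes in TC71, with differences of −0.85 and −1.14. The induced genes themselves had larger log2 fold changes in TC71, JUN by 0.73 and FOS by 2.21. Under vehicle FOS was log2 1.65 lower in TC71 than in EW8, and under doxycycline log2 0.55 higher. JUN differed by log2 −0.06 and 0.67. NUDT21 fell less in TC71 (0.26). SLC30A3 (1.16), BAG3 (0.59), SLC39A13 (0.43) and SLC30A1 (0.45) had larger log2 fold changes in TC71. HMOX1 had the largest difference of these genes, 2.85 (SE 0.21, adjusted p = 1.84e-08). The calls for SLC39A13 and SLC30A1 were lost in 10 and 14 of 19 alternatives, for SLC39A13 also without TC71 vehicle replicate 1 (0.27). SGK1, with 0.20, was not called, but had 0.72 and was called without that library.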

How the results depend on the processing

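MT2A was called in EW8 and TC71 under all 20 alternatives run for each (log2 2.77 to 2.94 and 1.84 to 2.09), and its difference of responses under all 19 (−1.03 to −0.74). The number of members called in EW8 was 1 to 2 when 1 library was left out, the second being MT1X or MT1F, and 2 with no fold limit. Between the lines it was 1 to 2 under vehicle when 1 library was left out (2 with MT1X) and 2 with no fold limit, and under doxycycline it went from 0 to 2 with no fold limit. With a replicate block, MT2A had log2 fold changes of 2.83 and 2.04, and the calls of members stayed at 1 in each line. Deviations of same-numbered libraries within a line correlated by −0.024 to 0.0071, and those of differently numbered ones by −0.024 to 0.038. No effect shared by replicate number was seen, which cannot show whether the libraries were paired by design. Signs turned for uncalled values only. With library size alone MT1F in TC71 was −0.023 and MTF1 in EW8 −0.017. Leaving out 1 library gave −0.26 to 0.22 for MT1F in TC71, −0.15 to 0.47 for MT1F between the lines under doxycycline, −0.12 to 0.72 for the SGK1 difference of responses and −0.69 to 0.91 for that of SRXN1. SLC30A1 in EW8 was 0.0033 with median-ratio factors, 0.057 with at least 10 counts in every library, 0.0031 with DESeq2, 0.044 with read pairs, 0.041 with 2 groups only and −0.040 to 0.083 when 1 library was left out. The list medians in TC71 without TC71 vehicle replicate 1 were added after seeing the data. The causes were not tested. At this depth 5 of the 8 members could not be tested, and no library without the transgenes was compared.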
